A study of Mus musculus with 28 samples.

Results

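The endogenous pluripotency activation genes are 10 mouse genes that are silent in fibroblasts and transcribed in embryonic stem cells (ESCs): Nanog, Dppa5a, Zfp42, Esrrb, Dppa3, Tdh, Fbxo15, Gdf3, Sall4 and Lin28a. They were taken by gene name from a deposited table of 50600 genes, where each name matched 1 row. None of them was delivered by the reprogramming vectors, so their values come from the cells' own loci, whereas the rows of Pou5f1 (Oct4), Sox2 and Klf4 hold the endogenous and the vector transcripts together. The table holds 28 RNA-seq libraries, 2 for each of 14 groups. All groups are mouse embryonic fibroblasts (MEFs), which the labels call wild type (WT) and the paper describes as carrying the Oct4-GFP (OG2) reporter from a cross of OG2 males with 129 females. MEF control libraries had no treatment, and p38i MEF libraries were treated with SB203580, an inhibitor of the p38 MAP kinases. The other 12 groups received retroviral Oct4, Klf4 and Sox2 (OKS) and were collected on days 1, 3, 5 and 7 (D1, D3, D5 and D7) in iCD1 induction medium. In the pre-p38i arm SB203580 was given to the MEFs before induction, in the p38i arm it was given during induction, and the remaining arm is the control, for which the paper names DMSO and the labels no vehicle. The libraries come from whole cultures, in which infected and uninfected cells are mixed, and nothing says that the 2 libraries of a group came from separate cultures, so p-values measure the spread between these libraries, which may be technical.

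Pluripotency in the mouse is held by a network of transcription factors that activate each other's genes. Within it Nanog (a homeodomain factor), Esrrb (an orphan nuclear receptor) and Sall4 (a zinc finger factor) act as regulators, and Zfp42 (also called Rex1) is a zinc finger gene used as a marker of the naive state. Dppa5a codes for an RNA-binding protein, Dppa3 (Stella) for a protein that guards DNA methylation in the early embryo, Gdf3 for a ligand of the TGF-beta superfamily, Tdh for the threonine dehydrogenase of mitochondria, Fbxo15 for an F-box protein used in early iPSC selection reporters, and Lin28a for an RNA-binding protein that blocks the maturation of let-7 microRNAs. In reprogramming of fibroblasts these genes do not switch on together, and activation of Nanog and Esrrb is regarded as a late step.

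The genes lie on 8 chromosomes of GRCm38. Gdf3 (chr6:122605403-122610087), Dppa3 (chr6:122626410-122630272) and Nanog (chr6:122707489-122714633) are neighbours on chromosome 6. The others are Dppa5a (chr9:78367052-78368177), Zfp42 (chr8:43295063-43306980), Esrrb (chr12:86361117-86521628), Tdh (chr14:63492347-63509092), Sall4 (chr2:168748332-168767943) and Lin28a (chr4:134003330-134018841), and Fbxo15 is placed where its values are given. All 10 are annotated as protein coding.

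The sequence just upstream of a gene is where the delivered factors could meet it, so the 250 bases before the transcription start are shown for Nanog and Zfp42, a late and an early gene in this series. RefSeq windows (GRCm38.p6) were at hand for 4 of the 10 genes, Nanog, Zfp42, Esrrb and Lin28a. Capitals mark the POU octamer core TTTGCAT and, in Nanog, the composite of this core with the SOX core ACAATG 1 base further on. Both windows are written 5′ to 3′ on the strand of the gene, at chr6:122707239-122707488 (+) for Nanog and chr8:43307010-43307259 (-) for Zfp42.
Nanog: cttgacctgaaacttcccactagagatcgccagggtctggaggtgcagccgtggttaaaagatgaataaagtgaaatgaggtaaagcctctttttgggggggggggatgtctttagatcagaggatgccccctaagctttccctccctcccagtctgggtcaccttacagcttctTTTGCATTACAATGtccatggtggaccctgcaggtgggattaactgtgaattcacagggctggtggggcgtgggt
Zfp42: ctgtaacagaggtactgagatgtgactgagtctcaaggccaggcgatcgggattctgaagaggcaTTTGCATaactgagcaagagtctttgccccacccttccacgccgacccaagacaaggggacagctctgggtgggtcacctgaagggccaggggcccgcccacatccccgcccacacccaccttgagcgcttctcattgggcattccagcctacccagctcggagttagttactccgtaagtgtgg

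Searched on both strands, the octamer core began 75 bases before the start of Nanog and 185 bases before that of Zfp42, and was in neither the Lin28a window nor the 2 Esrrb windows. It is found in 4.12% of the 32851 windows of this length. The composite occurred in 0.00609% of them, which is 2 windows, and both belong to Nanog, whose table has 2 overlapping starts. A KLF core, GGGNGTG, was in the Nanog, Zfp42 and Lin28a windows and in 1 of the 2 Esrrb windows, and is found in 26.1% of all windows. The SOX core alone is found in 10.7% of windows, and of these genes the Nanog and Lin28a windows hold it. These letters are descriptions of the windows, and no binding was measured.

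Each gene has 1 value per library, a whole number on the scale of TPM, a gene's share of its library corrected for transcript length. A value of 0 stands for a level below 1 after rounding down. Library totals ran from 991287 to 992537, between 12454 and 14170 genes per library reached 1, and the number of reads behind a value is unknown. The OKS rows together made up 0.00181% to 0.00202% of a MEF library and 0.333% to 0.607% of a library after induction. Pou5f1, counted with its vector copy, was at 0 in all 4 MEF libraries and at 2822 to 2996 in the DMSO libraries on D1.

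All 10 genes were listed at 0 in the 4 MEF libraries, with and without SB203580. In the p38i MEFs none of the 8 genes that could be tested differed from control MEFs by limma at an adjusted p of 0.05 or an unadjusted p of 0.05, while 17.9% of all genes were called in either direction. With every value of the 8 at 0 no call was possible, so nothing on a response to SB203580 is read from it. After induction Tdh was at 1 or more in both libraries of every arm from D1, and Lin28a reached 1 in both libraries of no group. By D3 of the DMSO arm 4 of the 10 genes stood at 1 or more in both libraries (Tdh, Gdf3, Zfp42 and Fbxo15), and on D7 8 did. In pre-p38i the count was 4 by D3, 6 by D5 and 9 by D7, and in p38i it was 2 by D3, 4 by D5 and 5 by D7.

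**Figure D1:**
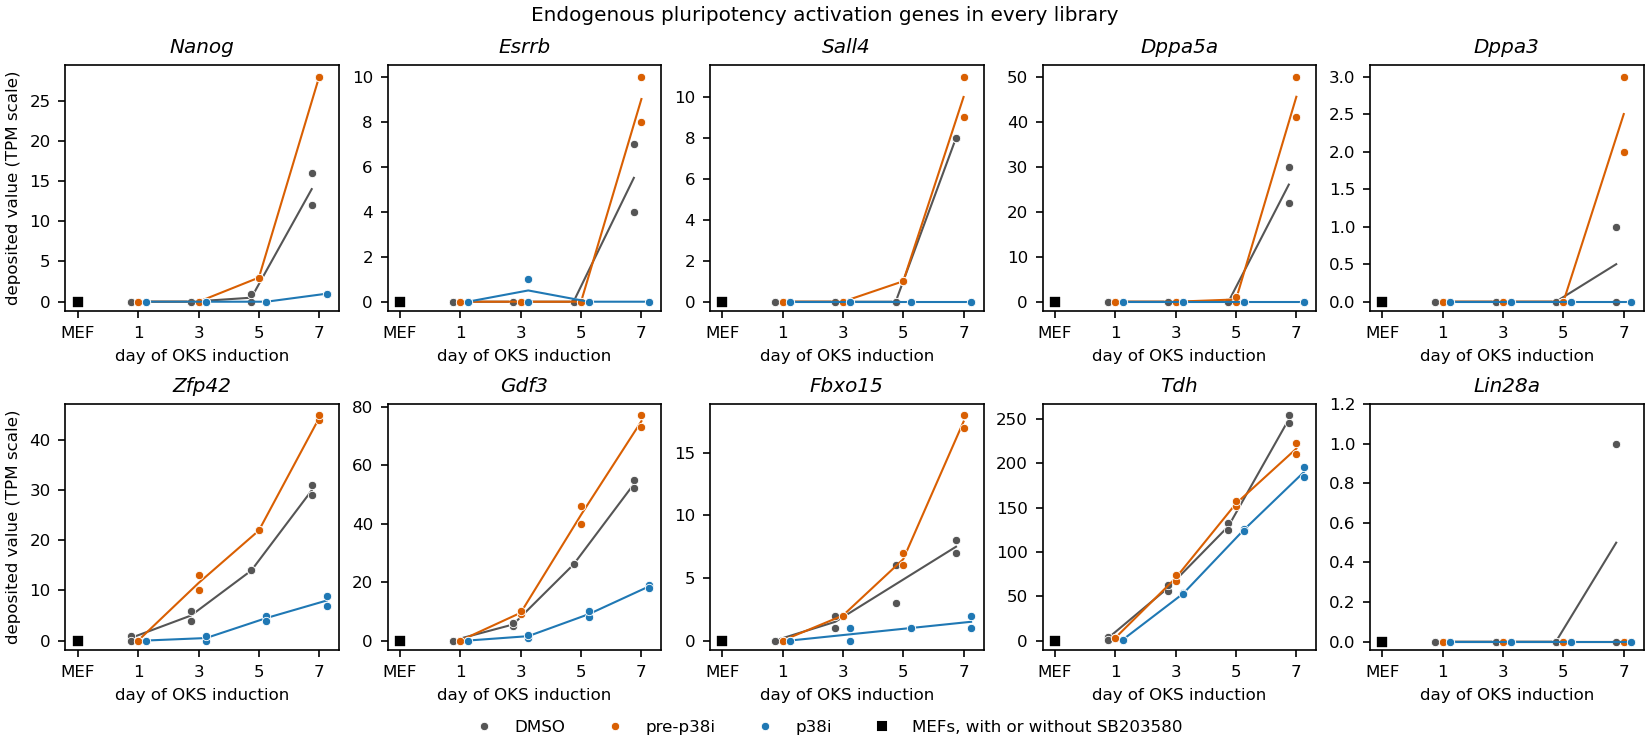
Deposited value (TPM scale, linear axis, own scale per gene) of each of the 10 genes in every library against the day of OKS induction, with both libraries of a group as points and lines through the group means. All MEF libraries are at 0, no p38i library lies above a DMSO library on D7, and Tdh is the only gene whose DMSO libraries (254 and 245) lie above the pre-p38i libraries (210 and 223) on D7 apart from Lin28a, which reached 1 in a single DMSO library.

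Nanog was listed at 0 through D3 in every arm. In the DMSO libraries it was listed at 0 and 0 on D1 and D3, at 0 and 1 on D5, and at 12 and 16 on D7. In pre-p38i it was at 0 on D1 and D3, already at 3 and 3 on D5, and at 28 and 28 on D7. In p38i it was at 0 through D5 and at 1 and 1 on D7. The pre-p38i libraries were thus above both DMSO libraries on D5 and D7, and the p38i libraries were below both on D7, with no overlap. The difference between pre-p38i and DMSO on the log2(value + 1) scale was 1.5 ± 0.267 (SE) on D5 (adjusted p = 0.000315) and 0.96 ± 0.267 on D7 (adjusted p = 0.00998). The D5 call was lost when only the groups compared entered the fit (adjusted p = 0.141). The D7 call was lost in that fit too, and also with a pseudocount of 0.1. Between p38i and DMSO it was -2.89 ± 0.267 on D7 (adjusted p = 1.1e-07), where the mean in p38i was 7.14% of the DMSO mean.

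Esrrb, a partner of Nanog in the network, reached 1 in both libraries of a group only on D7. Its D7 values were below those of Nanog, so with values rounded down a later onset and a lower level cannot be told apart. On D7 its libraries held 7 and 4 in DMSO and 8 and 10 in pre-p38i, and it was listed at 0 in all other libraries but 1, the first p38i library on D3, which had a value of 1. On D7 the pre-p38i libraries were above both DMSO libraries, by 0.65 ± 0.308 on the log2(value + 1) scale, which did not pass the test (adjusted p = 0.12; 95% interval of the difference 0.0087 to 1.3). This difference was called when the eBayes step of limma was run without a trend (adjusted p = 0.0373). Both p38i libraries were at 0 on D7 (adjusted p against DMSO 1.9e-06). Against a group at 0 no fold change is given.

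Sall4, which binds with Oct4 and Nanog in ESCs, held 8 in both DMSO libraries and 11 and 9 in pre-p38i on D7. On D5 it was at 1 and 1 in pre-p38i and listed at 0 in both other arms (adjusted p = 0.00308 against DMSO), a step of 1 unit that is the smallest the table can hold. It was at 0 in every p38i library of the time course (D7 against DMSO, adjusted p = 4.7e-09). The D7 difference between pre-p38i and DMSO, 0.28 ± 0.230 on the log2(value + 1) scale, did not pass the test (adjusted p = 0.384; 95% interval -0.198 to 0.765). It was called with no filter, with a value of at least 1 in at least 2 libraries, and with eBayes without a trend.

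Dppa5a, which codes for an RNA-binding protein of ESCs, made the largest step of the late genes. Its values were 22 and 30 in DMSO, 50 and 41 in pre-p38i, with 0 and 0 in p38i on D7, and before D7 it was above 0 in a single library, of pre-p38i on D5, at 1. The 3 arms did not overlap on D7. The mean in pre-p38i was 1.75 times the DMSO mean (difference of 0.79 ± 0.278 on the log2(value + 1) scale, adjusted p = 0.0371), and p38i differed from DMSO at an adjusted p of 2.9e-10. The 6 rows with near-identical sequence to Dppa5a were at 0 in every library, and a transcript of Pigp that shares 417 bases at 95.9% identity belongs to a gene with 26 and 24 in DMSO, 29 and 23 in pre-p38i, with 33 and 30 in p38i on D7, so reads could be split between these rows.

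Dppa3 and Lin28a stayed near the limit of the table. Dppa3 was at 2 and 3 in pre-p38i, at 0 and 1 in DMSO and at 0 in both p38i libraries on D7, and elsewhere it was at 0. The pre-p38i libraries were above the other 2 arms, at values of 3 or less. Lin28a was at 1 in a single DMSO library on D7 and at 0 in the other 27 libraries. Neither gene reached the mean of 1 over the 28 libraries that the test required (means of 0.214 and 0.0357), whereas Esrrb passed with a mean of 1.07.

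Zfp42 led the gradual genes of the factor class. Its DMSO libraries held 1 and 0 on D1, 6 and 4 on D3, 14 and 14 on D5, and 31 and 29 on D7. The pre-p38i libraries held 0 and 0, then 10 and 13, 22 and 22, and 44 and 45 on the same days, and the p38i libraries 0 and 0, then 0 and 1, 5 and 4, and 7 and 9. From D3 the order pre-p38i above DMSO above p38i held in every library. Against DMSO, pre-p38i differed by 1.07 ± 0.288 on the log2(value + 1) scale on D3 (adjusted p = 0.0122) but did not pass the test on D5 (0.62, adjusted p = 0.128) or on D7 (0.55, adjusted p = 0.161). When only the groups compared entered the fit, the D5 and D7 differences were called (adjusted p = 0.0264 and 0.0245) and that on D3 was not. The p38i libraries fell below DMSO on D3 (-2.06 ± 0.288, adjusted p = 2.9e-05), on D5 (-1.45, adjusted p = 0.000879) and on D7 (-1.79, adjusted p = 7.7e-05), and on D7 their mean was 26.7% of the DMSO mean.

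Gdf3, the ligand, gave the smallest errors of the 8 tested genes. It was at 0 in all libraries on D1. In DMSO it rose to 5 and 6 on D3, 26 and 26 on D5, and 55 and 52 on D7, and in pre-p38i to 9 and 10, 46 and 40, and 73 and 77. In p38i it was at 1 and 2, 8 and 10, and 19 and 18 on those days. The arms were separate from each other on D3, D5 and D7. Gdf3 was the only gene called higher in pre-p38i than in DMSO on all 3 of these days, with differences of 0.69 ± 0.163 on D3 (adjusted p = 0.00489), 0.70 on D5 (adjusted p = 0.00344) and 0.48 on D7 (adjusted p = 0.0324) on the log2(value + 1) scale. The D5 call was lost with a pseudocount of 0.1 (adjusted p = 0.052) and in the fit of only the groups compared (adjusted p = 0.0513). The D3 call was lost in that fit as well, and the D7 call with the pseudocount of 0.1. In p38i Gdf3 was lower than in DMSO by a like amount on each day, with differences of -1.40, -1.44 and -1.48 (SE 0.163, adjusted p = 3.2e-06, 2.1e-06 and 1.0e-06).

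Fbxo15 (chr18:84935158-84981376), the F-box gene, was at 2 and 1 on D3, 6 and 3 on D5, and 7 and 8 on D7 in DMSO, and at 2 and 2, 7 and 6, and 17 and 18 in pre-p38i. In p38i it was at 0 and 1 on D3, 1 and 1 on D5, and 2 and 1 on D7. Pre-p38i and DMSO overlapped on D3 and D5 and separated on D7, where the pre-p38i mean was 2.33 times the DMSO mean (1.12 ± 0.307 on the log2(value + 1) scale, adjusted p = 0.00913). The p38i libraries were lower than DMSO on D5 (-1.40, adjusted p = 0.00206) and on D7 (-1.79, adjusted p = 0.000149), and overlapped with DMSO on D3.

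Tdh, the enzyme, was the most abundant of the 10 genes in every arm. Its DMSO libraries held 4 and 1 on D1, 56 and 63 on D3, 133 and 125 on D5, and 254 and 245 on D7. The pre-p38i libraries held 3 and 3, 67 and 74, 152 and 157, and 210 and 223, and the p38i libraries 1 and 1, 54 and 52, 126 and 123, and 196 and 184. Libraries of pre-p38i lay above those of DMSO on D3 and D5 and below them on D7, and p38i lay below DMSO on D3 and D7 and overlapped with it on D5. None of these differences passed the test: on D7 it was -0.20 ± 0.227 for pre-p38i (adjusted p = 0.541; 95% interval -0.680 to 0.271) and -0.39 ± 0.227 for p38i (adjusted p = 0.202; 95% interval -0.867 to 0.0836), where the p38i mean was 76.2% of the DMSO mean. All groups share 1 estimate of the spread, to which the DMSO D1 libraries, at 4 and 1, add, and without the second of them the standard error of the D1 difference was 0.0879. When only the groups compared entered the fit, the D7 difference between p38i and DMSO was called (adjusted p = 0.0332). Tdh made up 62.2% to 64.1% of the summed level of the 10 genes in DMSO on D7, 47.4% to 49.1% in pre-p38i and 86.4% to 87.1% in p38i.

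Without Tdh, the other 9 genes summed to 142 and 149 in DMSO, 233 and 231 in pre-p38i, with 29 and 29 in p38i on D7. On D5 these sums were 46 and 44, 79 and 73, and 14 and 15. In whole cultures, fewer cells that express a gene and less RNA per cell cannot be told apart. The order of levels on D7 was Tdh, Gdf3, Zfp42, Dppa5a, Nanog, Sall4, Fbxo15, Esrrb in DMSO, where Zfp42 and Dppa5a, Sall4 and Fbxo15, and Fbxo15 and Esrrb overlapped. In pre-p38i Dppa5a stood above Zfp42, again overlapping, and Fbxo15 stood above Sall4 without overlap. In p38i Tdh, Gdf3 and Zfp42 kept the first 3 places with no overlap between them, Fbxo15 (2 and 1) and Nanog (1 and 1) overlapped, and the other 5 genes were at 0.

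Counted over the 8 genes that passed the filter, pre-p38i differed from DMSO in none on D1 by limma, 2 on D3 (Gdf3 and Zfp42), 3 on D5 (Gdf3, Nanog and Sall4) and 4 on D7 (Nanog, Dppa5a, Fbxo15 and Gdf3), all of them higher. Over all 13230 genes tested, 11.6% were called in either direction on D1, and 13.8%, 14.3% and 15.4% were called higher on D3, D5 and D7. On D1 none of the 8 had an unadjusted p under 0.05 either. Nanog, Dppa5a, Esrrb, Fbxo15, Gdf3 and Sall4 were at 0 on D1 in both arms and could not be called. The median difference of the 8 genes on D7 was 0.60, beside 0.053 for all genes. Nanog, Esrrb, Sall4 and Dppa5a entered the test mainly through their D7 libraries, so these counts describe the genes that passed and are no test of the set. The 4 calls on D7 depended on the libraries and on the scale. None of the 4 held without the first DMSO D7 library, none without the second pre-p38i D7 library, 1 (Fbxo15) without the first pre-p38i D7 library, and none with a pseudocount of 0.1 in place of 1. When only the groups compared entered the fit, the calls of Nanog and Dppa5a on D7, of Nanog and Gdf3 on D5 and of Gdf3 and Zfp42 on D3 were lost. With the pseudocount of 0.1 the calls of Gdf3 on D5 and of Zfp42 on D3 were also lost. Other calls were gained, of Zfp42 on D5 and D7 in the fit of only the groups compared. Esrrb and Sall4 were called on D7 when eBayes was run without a trend.

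**Figure D2:**
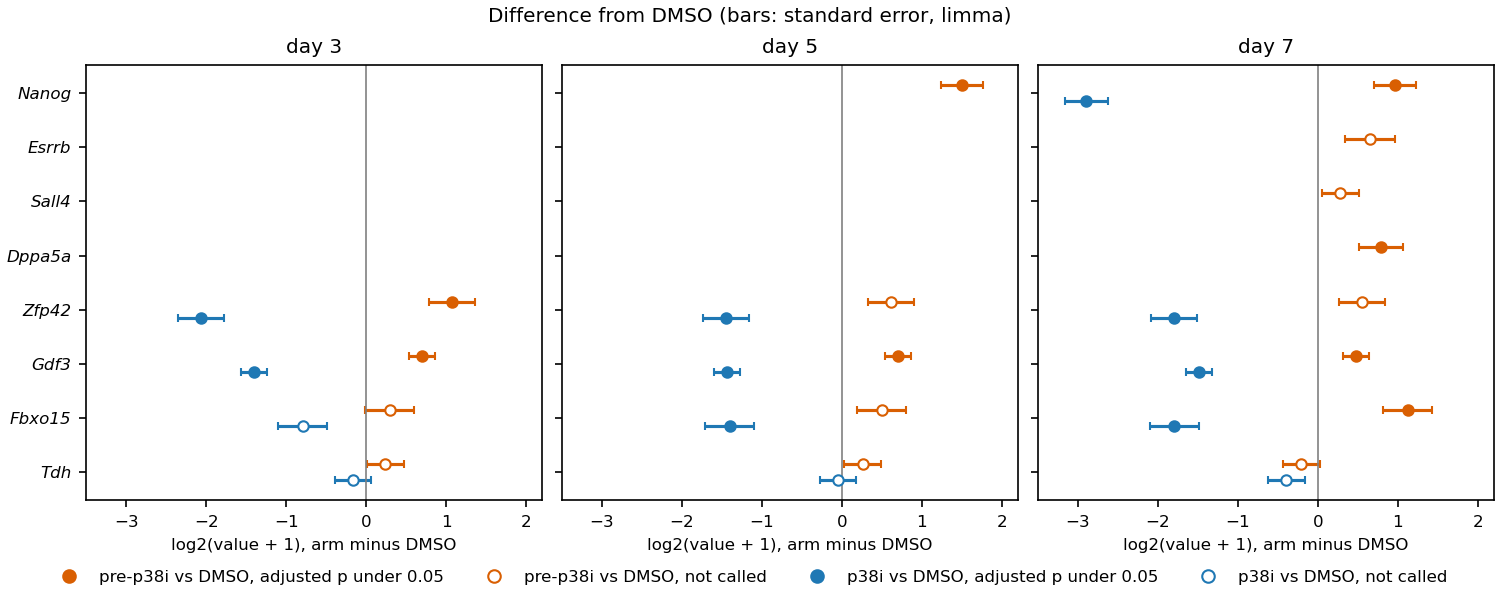
Difference from DMSO on the log2(value + 1) scale (x axis) for the 8 tested genes on D3, D5 and D7, with standard errors from limma as bars and filled points for an adjusted p under 0.05. Points are left out where a group is listed at 0. On D7 the p38i points of Nanog, Zfp42, Gdf3 and Fbxo15 lie between -2.89 and -1.48, and their pre-p38i points between 0.48 and 1.12. The Tdh points lie at -0.39 in p38i and -0.20 in pre-p38i.

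Between p38i and DMSO none of the 8 genes was called on D1 by limma, with 1 (Tdh) at an unadjusted p under 0.05 and an adjusted p of 0.0539, against 16.1% of all genes called in either direction. Of the 8, only Tdh and Zfp42 were above 0 in any library of these arms on D1, so the others could not be called. The genes called lower numbered 2 on D3 (Gdf3 and Zfp42), 3 on D5 (Fbxo15, Gdf3 and Zfp42) and 7 on D7, all but Tdh, beside 16.2%, 18.7% and 17.6% of all genes. Nanog, Esrrb, Sall4 and Dppa5a passed the filter mainly through their D7 libraries of DMSO and pre-p38i. The D7 count and median therefore describe the genes that passed and are no test of the set. No member was called higher on any day, except that without the second p38i D3 library Esrrb, at 1 in the library that was left, was called higher on D3 (adjusted p = 0.0413). The median on D7 was -2.23, or -1.79 with the groups listed at 0 set to 1, beside 0 for all genes to 2 decimals. The 7 calls on D7 held whichever library was left out, that of Zfp42 was lost with a pseudocount of 0.1 (adjusted p = 0.108), and the fit of only the groups compared called none of the 8 on D3. On D5 the calls of Fbxo15 and Zfp42 were lost with a pseudocount of 0.1, and that of Fbxo15 also in the fit of only the groups compared and without the first DMSO D5 library.

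Set against each other, p38i and pre-p38i differed in 1 gene on D1 (Tdh, 1 and 1 against 3 and 3, adjusted p = 0.00246), 3 on D3 (Fbxo15, Gdf3 and Zfp42), 5 on D5 (Fbxo15, Gdf3, Nanog, Sall4 and Zfp42) and 7 on D7, all lower in p38i. The shares of all genes were 28.2% called in either direction on D1 and 31.4%, 31.1% and 29.5% called lower on D3, D5 and D7. On D1 only Tdh was above 0 in these arms, so no other member could be called. The filter limits the later counts as it does those against DMSO, and they are no test of the set. These comparisons use the same libraries as those against DMSO. On D7 the difference was -3.86 for Nanog, -2.92 for Fbxo15, -2.35 for Zfp42 and -1.96 for Gdf3 on the log2(value + 1) scale, and -0.19 for Tdh (adjusted p = 0.511).

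Within an arm, all 8 genes rose from D1 to D7 in DMSO and in pre-p38i, where 28.4% and 36.1% of all genes were called higher, and 5 rose in p38i (Tdh, Gdf3, Zfp42, Fbxo15 and Nanog), where 32.8% were. Nanog, Dppa5a, Esrrb and Sall4 passed the filter mainly through their D7 libraries of DMSO and pre-p38i, so their rise in those arms was fixed by the filter and nothing is read from the counts. The rise of Tdh was 6.31 ± 0.227 on the log2(value + 1) scale in DMSO, with 5.76 in pre-p38i and 6.58 in p38i. The change from D1 to D7 was smaller in p38i than in DMSO for 7 of the 8 genes, all but Tdh, by the test of the difference itself, beside 21.6% of all genes called in either direction. That in pre-p38i was not shown to differ from DMSO for any of the 8 by limma, beside 16.7% of all genes, although 3 had an unadjusted p under 0.05. Nanog, Dppa5a, Esrrb, Fbxo15, Gdf3 and Sall4 were at 0 on D1 in every arm. For them both contrasts of changes repeat the D7 difference from DMSO with a larger standard error and are no further test.

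Genes of the same network were followed from lists that leave out the 10. Of 12 other naive pluripotency factors, 10 were tested, and on D7 3 were higher in pre-p38i (Klf2, Tfcp2l1 and Tet2) and 5 were lower in p38i, with none in the opposite direction. The matching shares of all genes tested were 15.4% for a rise with pre-p38i and 17.6% for a fall with p38i. For the opposite directions these shares were 14.5% (pre-p38i) and 16.5% (p38i). Klf2, a Krüppel-like factor of the naive state, stood at 12 and 15 in DMSO, 31 and 30 in pre-p38i, with 7 and 6 in p38i on D7, and was the only named gene of this list called in both comparisons (1.13 ± 0.160 and -0.95 ± 0.160, adjusted p = 2.3e-05 and 0.000131). Nr5a2, a nuclear receptor that can stand in for Oct4 in reprogramming, was at 13 and 17, 16 and 16, and 4 and 6 in the same order. Zfp296 (16 and 16, 19 and 23, 5 and 5) and Gbx2 (20 and 22, 28 and 30, 10 and 10) were also lower in p38i (-1.5 and -1.0, adjusted p = 7.2e-07 and 0.00464) and were not called in pre-p38i (adjusted p = 0.0957 and 0.198). Prdm14 and Tcl1 were at 0 in every library.

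Of 22 further ESC genes only 9 reached the mean of 1, and on D7 2 of them were higher in pre-p38i and 6 lower in p38i, beside 15.4% and 17.6% of all genes. A count of 2 in 9 is near the share of all genes. The 2 were Epcam, an epithelial adhesion molecule (182 and 183 in DMSO, 332 and 358 in pre-p38i, 98 and 89 in p38i), and Alpl, the alkaline phosphatase used to stain iPSC colonies (171 and 162, 319 and 319, 95 and 97). Both were called in both comparisons. Zscan10 (7 and 7, 10 and 10, 1 and 0) and Dnmt3b, a de novo DNA methyltransferase (7 and 6, 9 and 9, 2 and 0), were called lower in p38i and not called in pre-p38i (-2.50 ± 0.478 and -2.11 ± 0.408, adjusted p = 0.00043 and 0.000483). Lin28b and Otx2 were at 0 in all libraries.

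**Figure D3:**
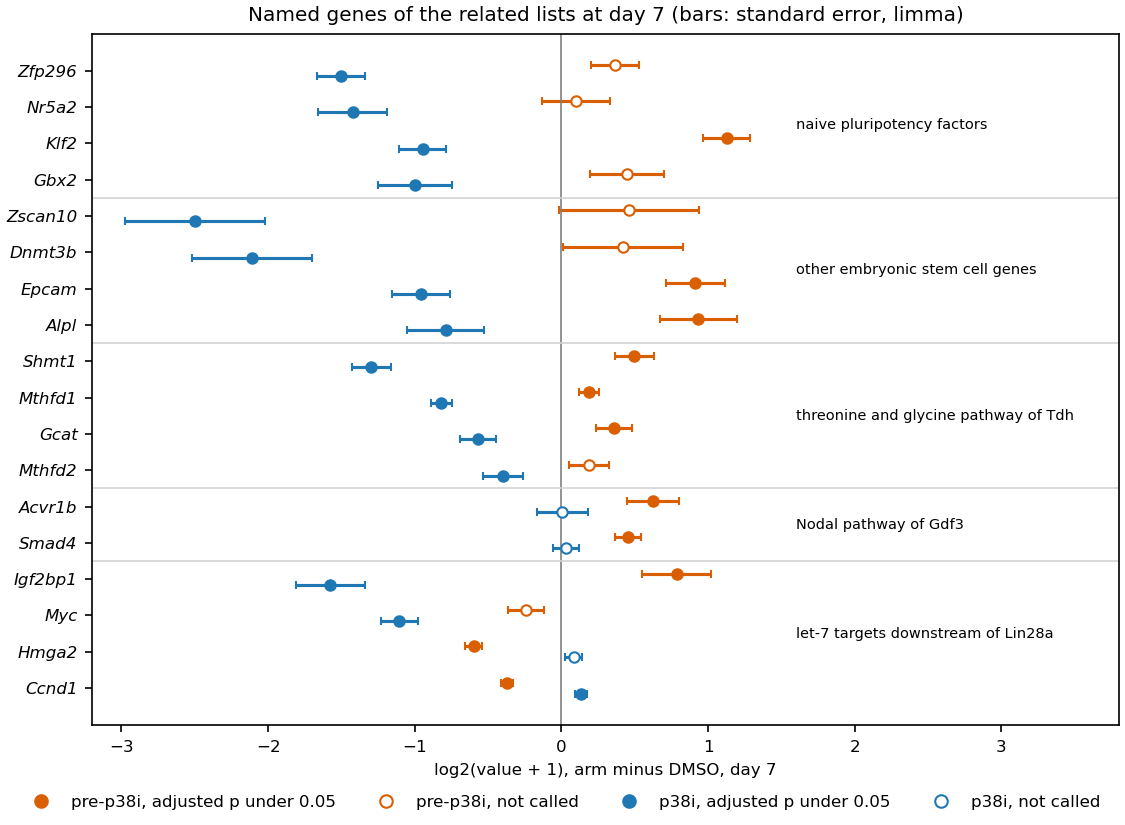
Difference from DMSO on D7 on the log2(value + 1) scale (x axis) for the named genes of 5 related lists, with standard errors from limma as bars and filled points for an adjusted p under 0.05. In the naive factor list all 4 p38i points are filled and lie between -1.5 and -0.95, and 1 of the 4 pre-p38i points (Klf2) is filled.

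Tdh cleaves threonine together with Gcat, which makes glycine and acetyl-CoA from its product, and the glycine feeds folate-bound one-carbon metabolism. Of 12 other genes of this route 11 were tested. On D7 pre-p38i had 5 of them higher and 1 lower, and p38i had 1 higher and 5 lower. Of all genes, pre-p38i called 15.4% higher against 14.5% lower, while p38i called 16.5% higher against 17.6% lower. Gcat was at 37 and 35 in DMSO, 43 and 50 in pre-p38i, with 26 and 22 in p38i (0.36 and -0.57 on the log2(value + 1) scale, adjusted p = 0.0353 and 0.00137). Shmt1, the cytosolic serine hydroxymethyltransferase, was at 28 and 26, 39 and 38, and 12 and 9 (0.50 and -1.30, adjusted p = 0.00833 and 4.6e-07), and Mthfd1 was called in the same directions (0.19 and -0.82). Whether these differences were unlike those of Tdh (-0.20 and -0.39) was not tested.

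Gdf3 signals through activin receptors and Smad proteins, as Nodal does. Of 14 genes of that pathway 9 were tested, and on D7 Acvr1b, a type I receptor, and Smad4 were higher in pre-p38i (0.62 and 0.46, adjusted p = 0.0112 and 0.000564), a count near the 15.4% of all genes, and none was called in p38i by limma, with 1 at an unadjusted p under 0.05. Nodal, its co-receptor gene Tdgf1, Foxh1 and Lefty2 did not reach the mean of 1. Of 12 let-7 targets, whose repression Lin28a relieves, 10 were tested, with 2 higher and 2 lower in each comparison. These counts are near the shares of all genes given for the threonine route (15.4% and 14.5%, then 16.5% and 17.6%), so the values describe single genes and not the list. Igf2bp1 was higher in pre-p38i and lower in p38i (0.79 and -1.58, adjusted p = 0.016 and 3.4e-05), Hmga2 was lower in pre-p38i (-0.60, adjusted p = 1.3e-07), Ccnd1 was lower in pre-p38i and higher in p38i (-0.37 and 0.13), and Myc was lower in p38i (-1.11, adjusted p = 1.5e-06).

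Gdf3, Dppa3 and Nanog lie within a gene cluster on chromosome 6 whose nearest neighbours are Apobec1, whose start lies 129.7 kb before that of Nanog, and Slc2a3, a glucose transporter, whose start lies 20.3 kb after it. Slc2a3 was at 3 and 2 in control MEFs and on D7 at 65 and 69 in DMSO, 81 and 81 in pre-p38i, with 20 and 19 in p38i. It differed in p38i (-1.73 ± 0.170, adjusted p = 2.4e-07) and not by the test in pre-p38i (0.27, adjusted p = 0.25), although both pre-p38i libraries were above DMSO. Apobec1, a cytidine deaminase, was at 5 and 7 in control MEFs and on D7 at 55 and 60, 69 and 68, and 33 and 34 (p38i -0.76, adjusted p = 0.000777). Further out, Foxj2 (13 and 13, 16 and 12, 13 and 14) and Necap1 (38 and 43, 39 and 38, 42 and 42) overlapped between the arms on D7. Of the 6 neighbours 5 were tested, with none called in pre-p38i by limma or at an unadjusted p of 0.05, and 2 lower in p38i, beside 17.6% of all genes.

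**Figure D4:**
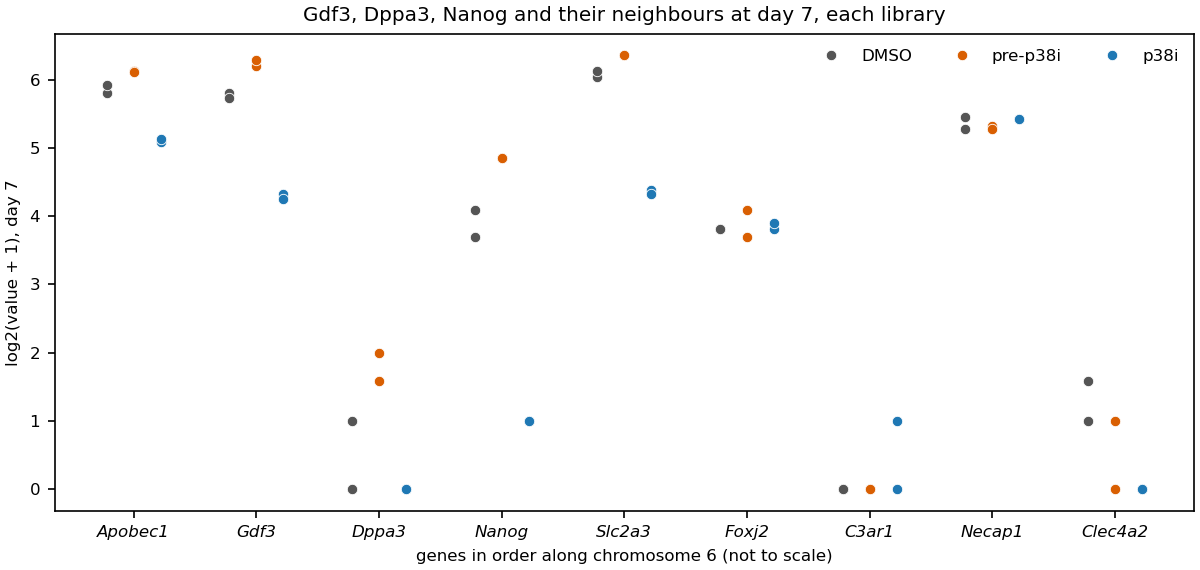
Level on D7 on the log2(value + 1) scale (y axis) of Gdf3, Dppa3, Nanog and 6 neighbouring genes in their order along chromosome 6, with each library as a point. In Apobec1, Gdf3, Nanog and Slc2a3 both p38i libraries lie below both DMSO libraries (for Slc2a3 20 and 19 against 65 and 69), while Foxj2 and Necap1 overlap.

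The genes whose pattern over the 14 group means was most like that of Nanog, on the log2(value + 1) scale, were H2-Bl (Pearson's r = 0.990), Cyp2b23 (0.987), Cldn7 (0.981), Gm14149 (0.977) and Gm44206 (0.976). Cldn7, a claudin of epithelial tight junctions, was at 18 and 16 in DMSO, 31 and 30 in pre-p38i, with 4 and 3 in p38i on D7. For the mean of the 10 genes the closest were Gm43305 (0.981), Hook1 (0.979), Capsl (0.977), Rnaset2a (0.972) and Dsg2 (0.971), the last a desmosomal cadherin at 20 and 17, 36 and 30, and 5 and 5. These are descriptions over 14 points that come from the same 28 libraries.

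The delivered factors themselves differed little between arms on D7. Pou5f1, as the total of endogenous and vector transcripts, was at 2214 and 2316 in DMSO, 1918 and 1915 in pre-p38i, with 2008 and 2144 in p38i (-0.24 ± 0.0451 and -0.13, adjusted p = 0.000439 and 0.037). Sox2 and Klf4 were not called (adjusted p = 0.818 and 0.773 in pre-p38i, 0.765 and 0.891 in p38i). On D1 the total of Pou5f1 was 3768 and 3846 in pre-p38i, above the DMSO libraries, and 2314 and 2295 in p38i, below them. Sox2 and Klf4 lay in the same order on D1, and all of the OKS rows did so on D3, without overlap. The OKS rows summed to 5894 to 6020 in pre-p38i, 4494 to 4848 in DMSO and 3755 to 3854 in p38i on D1. The part of these totals in the values of the 10 genes was not tested.

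Markers of other cell types moved with the arms. The 8 fibroblast markers summed to 1578 to 1655 in DMSO, 965 to 1009 in pre-p38i, with 2080 to 2109 in p38i on D7, down from 10382 to 10650 in control MEFs. All 8 fell in pre-p38i against DMSO, and p38i had 4 higher and 1 lower. Of all genes, 14.5% were called lower in pre-p38i, and 16.5% were called higher and 17.6% lower in p38i. Dcn, decorin, was at 104 and 102 in DMSO, 51 and 42 in pre-p38i, with 225 and 231 in p38i. It had risen in every arm from 7 and 7 in control MEFs. Twist1 was at 74 and 74 in control MEFs and on D7 at 94 and 102, 65 and 58, and 155 and 161. Thy1, Col1a1, Col1a2, Pdgfrb, Prrx1 and Fn1 were below control MEFs in every arm on D7. Col1a1, a collagen chain, was lower in pre-p38i than in DMSO (-1.05 ± 0.0834, adjusted p = 1.2e-08) and not called in p38i (adjusted p = 0.173). Pdgfrb and Col1a2 were likewise lower in pre-p38i (-0.90 and -0.82) and not called in p38i (adjusted p = 0.598 and 0.246).

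The sum over 7 macrophage markers was above 0 in all groups, at 173 to 180 in DMSO, 31 to 42 in pre-p38i, with 176 to 204 in p38i on D7. Not every marker was detected, and Ptprc was at 0 in both D7 libraries of pre-p38i and of p38i. All 6 that were tested were lower in pre-p38i, beside 14.5% of all genes. In p38i 3 were lower and 1 was higher, beside 17.6% and 16.5% of all genes. Lyz2, a lysozyme that held a large part of the DMSO and p38i sums, was at 98 and 109 in DMSO, 9 and 7 in pre-p38i, with 135 and 113 in p38i. C1qa (-2.96 and -1.96), C1qb (-2.54 and -0.87) and Adgre1 (-2.25 and -1.08) were lower in both pre-p38i and p38i. The germ cell genes Ddx4, Dazl, Mael and Nanos3 were at 0 in every library, and of the 2 of 8 germ cell markers tested, Tfap2c was at 4 and 4, 8 and 11, and 0 and 1, and Kit at 22 and 21, 39 and 38, and 15 and 15. Gata4, Sox17 and Afp of extraembryonic endoderm, and Cdx2, Gcm1 and Hand1 of trophoblast, were at 0 in every library, as were Otx2, Pou3f1, Cer1 and Sox1 of primed epiblast, and the 2-cell-like markers were at 0 in all MEF and D7 libraries. The sums on D7 over the extraembryonic endoderm, trophoblast and primed epiblast lists of 6 genes each were at most 9 in any arm, and Krt7, a keratin in the trophoblast list, was at 2 and 2, 4 and 4, and 0 and 0. The part of fibroblasts and macrophages in the differences of the 10 genes was not tested.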

How the data were processed

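RNA-seq was analysed in 28 libraries of 14 groups, mapped from the sample labels. The authors deposited a score for each gene, a whole number, and from the library totals these were read as TPM rounded down. The submitters' processing notes name bcl2fastq, Bowtie2 2.2.5 and RSEM 1.3.0, with no roles given. Rounding removes differences below 1 and depth is unknown, so no counting intervals were computed. The library kit (V2 or V3) and the RNA extraction are given differently in labels and paper. The count of reads behind a value cannot be recovered.

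Differences on the log2(value + 1) scale, which understates changes of low genes, were tested in R 4.3.3 with limma 3.58.1 (lmFit, then trended eBayes). A mean of 1 or more was required, which left 13230 genes, and all 14 groups entered the same model, with Benjamini-Hochberg adjustment over all genes tested, two-sided, with a threshold of 0.05. The code was tested on simulated data. Of the table's genes 92.5% have the same position in GENCODE M21 (GRCm38), 9 of the 10 genes among them. Near-identical copies (at least 95% identity over 200 bases) were found with BLAST 2.17.0.

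The members and the gene lists were chosen with earlier results of these data known. From each list, up to 4 called genes with the largest difference on D7 were named, with Pou5f1, Sox2 and Klf4, and 5 genes by pattern likeness. Tfcp2l1, Tet2, Pigp, Twist1, Thy1, Prrx1 and Fn1 were named after their values were seen. So were the genes at 0 or under the filter and the other chromosome 6 neighbours. Itgam matched 2 rows and was left out. A gene of the lists is not reported here. Alternatives were 9 settings and leaving out each library. Libraries of ESCs and iPSCs were not analysed here.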

Additional observations from a re-analysis of the deposited data

Results flagged for a closer look

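The change from D1 to D7 differed between p38i and DMSO, by a limma contrast of the 2 changes on the log2(value + 1) scale, for Dppa5a (adjusted p = 9.9e-08), Sall4 (1.4e-06), Nanog (2.0e-05), Gdf3 (0.000139), Esrrb (0.000227), Fbxo15 (0.00583) and Zfp42 (0.0289). In p38i Dppa5a, Esrrb and Sall4 were listed at 0 on both days, and the other 4 rose by less than in DMSO. All of the 7 but Zfp42 were at 0 on D1 in both arms. For those genes the contrast repeats the D7 difference between p38i and DMSO and is no further test. In both p38i libraries on D7 each of the 7 was below both DMSO libraries. Gdf3 was at 19 and 18 against 55 and 52, and Zfp42 at 7 and 9 against 31 and 29. Tdh, at 196 and 184 against 254 and 245 on D7, was not among them. Its difference of changes was -0.39 without the first and 0.93 without the second DMSO D1 library, both called. For Zfp42 the call was lost with a pseudocount of 0.1, in the fit of only the groups compared, and without any of several single libraries (adjusted p from 0.00322 to 0.949 over the alternatives), and for Fbxo15 with a pseudocount of 0.1 (0.000956 to 0.136). For the other 5 genes it held under every alternative run, but Nanog, Esrrb and Sall4 could not be run with the mean of at least 5. Nanog, Esrrb, Sall4 and Dppa5a passed the filter mainly through their D7 libraries of DMSO and pre-p38i. Their calls therefore describe the genes that passed, and nothing more is read from their stability. With 2 libraries per group, outlying samples were not tested.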

How the results depend on the processing

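Counts of the members called are given, without the share of all genes called under the same alternative. A change in a count is therefore not read as particular to the members. Of 99 member differences, 58 kept their direction and side of the threshold under every alternative, and over the 9 settings other than leaving out a library 804 of 848 values did, with 26 calls lost and 17 gained. With the mean of at least 5, 4 members could be tested, and the count called fell to 1 for pre-p38i against DMSO on D5, 2 on D7, 3 for p38i against DMSO on D7, 2 for p38i against pre-p38i on D5 and 3 on D7, 4, 4 and 3 for the rise within DMSO, pre-p38i and p38i, and 3 for the difference of changes between p38i and DMSO, and rose to 1 for p38i against DMSO on D1 (Tdh). With the pseudocount of 0.1 the counts were 1 (pre-p38i, D3), 0 (pre-p38i, D7) and 1 (p38i, D5). Fitting only the groups compared gave 0 on D3 for both arms. For the difference of changes between pre-p38i and DMSO, where none was called, no filter, a value of at least 1 in 2 libraries, eBayes without a trend and the fit of only the groups compared each called 2 members. With the mean of at least 5, Nanog, Esrrb, Fbxo15 and Sall4 were no longer tested, and no member still tested lost its call. The cause of the other changes was not tested.

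Leaving out 1 library, with the lone library of a group assumed to vary like the others, gave 0 to 1 calls for pre-p38i against DMSO on D1, 0 to 2 on D3 and 0 to 3 on D7, 0 to 2 for p38i against DMSO on D1 and 2 to 4 on D3, and 0 to 1 for the difference of changes in pre-p38i. On D3 the pre-p38i count was 1 without either DMSO library and 0 without the second pre-p38i library, and the p38i count was 4 without the second p38i library, with 3 lower and 1 (Esrrb) higher. Tdh changed direction in 4 cases. Without the second DMSO D1 library its difference on D1 in pre-p38i was -0.32. The difference of changes in pre-p38i ran from -1.20 to 0.12 and that in p38i from -0.39 to 0.93 without the first or the second DMSO D1 library, and quantile normalization gave 0.0044 on D5 in p38i. Replicate numbers did not pair the libraries (correlations at the same time point from -0.0159 to 0.0513). With the replicate block 3 members were called for pre-p38i against DMSO on D7, Dppa5a being lost, and no other member's call changed. Values of low genes are limited by rounding to whole numbers.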
